A study of Mus musculus with 28 samples.

Results

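Dual specificity MAP kinase phosphatases remove phosphate from both the threonine and the tyrosine that switch a MAP kinase on, and so shut off the ERK, JNK and p38 kinases. Many of their genes are themselves induced by the kinase cascade that they silence, which makes them negative feedback regulators. In brain, several are immediate early genes of active neurons, and in microglia and macrophages they limit inflammatory signalling through p38 and JNK. The 10 genes described here are Dusp1, Dusp2, Dusp4, Dusp5, Dusp6, Dusp7, Dusp8, Dusp10, Dusp14 and Dusp16. They were taken by symbol from a table of 24391 gene symbols, in which all 10 were found and all 10 passed the filter on low counts in every comparison. Dusp14 is a small phosphatase that lacks the docking domain by which the other 9 grip a MAP kinase, and it is usually classed as atypical.

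The 28 libraries came from motor cortex of 14 mice of the genotype Cx3CR1-Cre/TRAPfl, which all groups shared. Cre under the Cx3cr1 promoter tags ribosomes in cells that express the fractalkine receptor, mainly microglia but also macrophages at the borders of the brain. Each mouse gave 1 TRAP library (translating ribosome affinity purification, the mRNA on tagged ribosomes) and 1 total lysate library. In each fraction, 7 mice had stayed in the home cage and 7 had run on a rotarod for 1 h, with 4 mice of each condition in cohort 1 and 3 in cohort 2.

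Total counts ran from 70090518 to 241381845 per library. Microglia markers were higher in TRAP than in lysate in 10 of 10 cases (median log2 fold 6.54, Cx3cr1 6.92 ± 0.14 and P2ry12 5.69 ± 0.19, SE), as were 6 of 6 border macrophage markers (median 6.11). The labels also call the lysate libraries microglia, yet these held markers of all the cell types listed. Endothelial markers were higher in TRAP too (6 of 6, median 2.38), and 6 of 7 excitatory neuron markers (median -1.09), 6 of 6 inhibitory neuron markers (median -1.36), 5 of 6 astrocyte markers (median -0.87) and 6 of 6 oligodendrocyte markers (median -1.40) were lower. In cohort 2 the Y-linked genes went against the sex label in both libraries of the run mice Male1 and Female2, 4 libraries in all. The run values of the 10 genes are therefore also given without these 2 mice.

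Promoter windows from RefSeq (GRCm38.p6, 250 bases before to 50 after the start site) were matched for 9 of the 10 genes. They were searched on both strands for sites of factors that MAP kinase and calcium signals act on. The full cAMP response element (CRE, TGACGTCA), bound by CREB, was found in 2 of the 9 windows, those of Dusp1 and Dusp8, and in 2.42% of the 17215 windows of genes in the table. The short CRE TGACG, which each full CRE contains, was found in 5 of 9 (Dusp1, Dusp2, Dusp5, Dusp8 and Dusp16) and in 24.4% of all windows. The CArG box, the site of serum response factor, was found only in Dusp5 among the 9 and in 1.46% of all windows. An ETS site (CCGGAA) was found in Dusp14 and in 18.9% of windows. The AP-1 site TGANTCA and the glucocorticoid receptor site AGAACA were in none of the 9, and in 7.44% and 16.7% of all windows. The windows of Dusp1, Dusp5 and Dusp8 are shown because Dusp5 and Dusp1 had the highest run over home cage values of the 10 in TRAP, whereas Dusp8, with 2 full CREs, had values near 0. None of these run values passed the test, and in lysate Dusp1 (log2 fold 0.25) was below Dusp2 (0.45) and Dusp4 (0.26). Whether the sites go with the run values was not tested. Capitals mark the CRE, the short CRE and the CArG box. A match describes the letters and shows no binding.
Dusp1 (chr17:26508423-26508722, minus strand): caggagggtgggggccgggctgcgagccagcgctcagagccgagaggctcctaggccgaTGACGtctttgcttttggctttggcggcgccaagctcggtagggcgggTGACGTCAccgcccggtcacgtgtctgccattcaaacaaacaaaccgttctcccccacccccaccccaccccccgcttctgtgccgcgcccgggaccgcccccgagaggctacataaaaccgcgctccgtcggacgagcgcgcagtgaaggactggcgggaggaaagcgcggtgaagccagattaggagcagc
Dusp5 (chr19:53528895-53529194, plus strand): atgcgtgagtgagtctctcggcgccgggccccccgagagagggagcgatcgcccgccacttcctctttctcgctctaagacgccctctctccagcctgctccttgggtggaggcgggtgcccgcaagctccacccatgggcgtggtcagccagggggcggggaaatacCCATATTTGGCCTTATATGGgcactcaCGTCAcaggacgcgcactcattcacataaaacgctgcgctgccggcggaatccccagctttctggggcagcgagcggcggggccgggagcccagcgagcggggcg
Dusp8 (chr7:142095235-142095534, minus strand): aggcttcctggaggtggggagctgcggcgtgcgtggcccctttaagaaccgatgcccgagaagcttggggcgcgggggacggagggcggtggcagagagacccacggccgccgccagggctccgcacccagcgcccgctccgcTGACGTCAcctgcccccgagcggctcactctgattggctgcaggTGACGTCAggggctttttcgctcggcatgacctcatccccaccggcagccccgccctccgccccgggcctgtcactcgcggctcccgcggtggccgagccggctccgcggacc
The CRE of Dusp1 lay at bases -143 to -136 from the start site and a further short CRE at -191 to -187. Dusp5 had 2 CArG boxes side by side, at -82 to -73 and -72 to -63, followed by a short CRE at -55 to -51. The CREs of Dusp8 lay at -107 to -100 and -63 to -56.

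**Figure D1:**
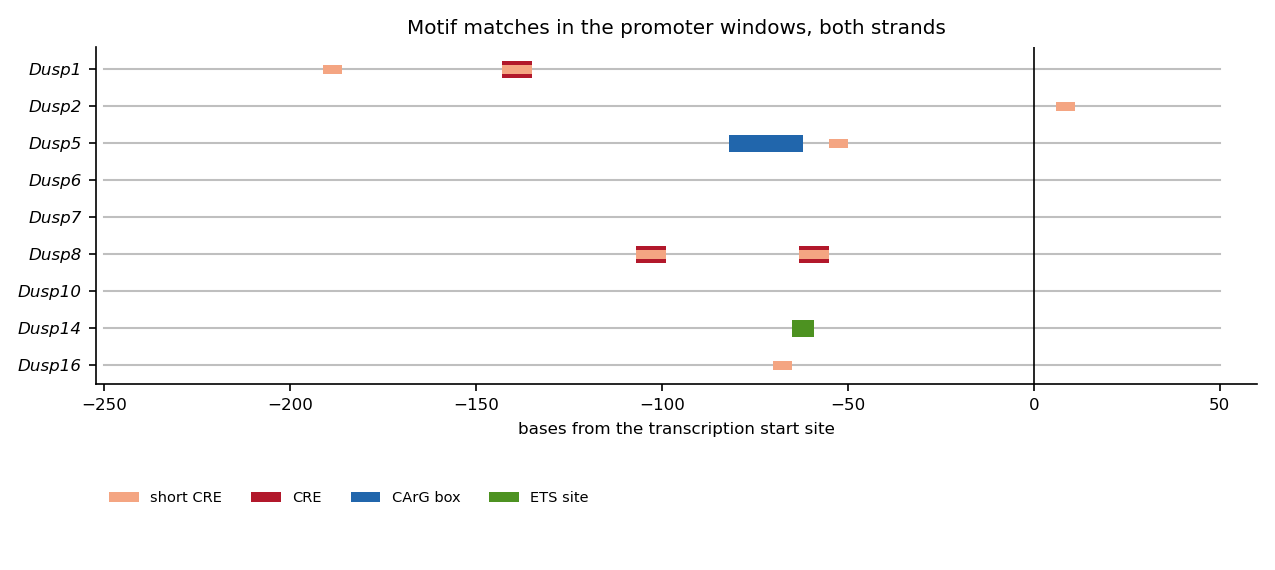
Matches of 4 motifs in the promoter windows of 9 phosphatase genes, by distance in bases from the transcription start site (vertical line). Full CREs, in Dusp1 and Dusp8, are overlaid by the short CRE within them, and the 2 adjoining CArG boxes of Dusp5 form 1 block.

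Levels of the 10 genes differed by more than 2 orders of magnitude when counts scaled to library size (CPM) were divided by exon length in kilobases. In TRAP the SDs of neighbouring genes in the order overlapped, except between Dusp7 and Dusp14, Dusp14 and Dusp1, and Dusp8 and Dusp16. Dusp6 had the highest level there, at 70.5 ± 17.6 CPM per kb (SD, n = 14), followed by Dusp7 at 47.1 ± 12.0 and Dusp14 at 29.1 ± 5.27. Dusp6 and Dusp7 are cytoplasmic phosphatases that act on ERK. Dusp1 at 13.3 ± 4.46 and Dusp8 at 11.2 ± 2.89 came next. The other 5 genes were far lower, with Dusp16 at 2.64 ± 0.69, Dusp5 at 1.45 ± 0.81, Dusp10 at 0.73 ± 0.19, Dusp2 at 0.72 ± 0.47 and Dusp4 at 0.42 ± 0.31. In total lysate the order was another one. Dusp14 led with 63.4 ± 11.1 CPM per kb, and each of its 14 libraries, from 50.1 upwards, lay above every library of the other 9 genes. Dusp6 (24.6 ± 6.36), Dusp1 (20.7 ± 4.77), Dusp8 (19.8 ± 10.4) and Dusp7 (17.2 ± 8.66) overlapped within their SDs. Dusp5 (2.03 ± 1.35), Dusp4 (1.16 ± 0.25), Dusp10 (1.08 ± 0.31), Dusp2 (0.71 ± 0.22) and Dusp16 (0.46 ± 0.10) were the low group, with overlapping SDs between each and the next.

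**Figure D2:**
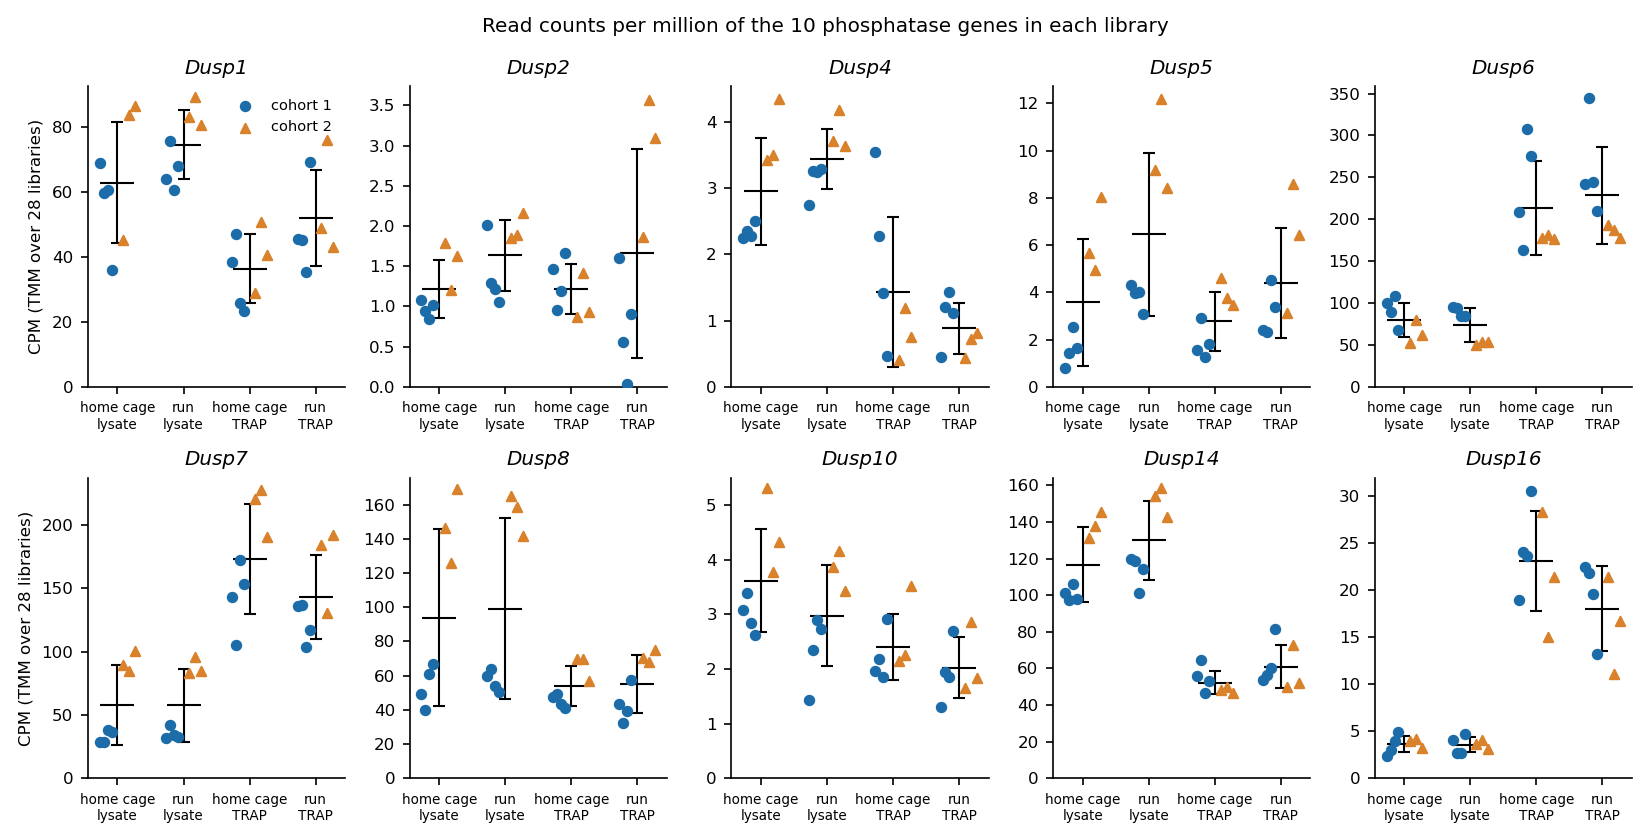
CPM of each gene (y axis, linear, own scale per panel) in each of 28 libraries by group, with circles for cohort 1, triangles for cohort 2, and a line with bars for the mean ± SD over 7 mice. Dusp6, Dusp7 and Dusp16 are higher in TRAP than in lysate, and cohort 2 lies above cohort 1 in lysate for Dusp5, Dusp7 and Dusp8.

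Of the 10 phosphatases, 3 were higher on tagged ribosomes than in the lysate, each by over 2-fold: Dusp16 (5.62-fold), Dusp7 (3.01-fold) and Dusp6 (2.90-fold). The 5 that were lower were Dusp4, Dusp14, Dusp8, Dusp1 and Dusp10. Dusp2 and Dusp5 did not pass the test. Across all 16880 genes tested with edgeR's quasi-likelihood test, 33.8% were called higher and 40.1% lower, so that the counts of 3 and 5 of 10 are near the background. The members' median log2 fold was -0.43 and that of all genes -0.21. In these bulk libraries fewer cells of a type and less RNA per cell cannot be told apart.

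Dusp6 and Dusp7, the pair of cytoplasmic ERK phosphatases, were higher in TRAP in all 14 mice, except that with library totals in place of TMM scaling Dusp7 was higher in 13 of 14 (-0.38 on the log2 scale in the run mouse Female2 of cohort 2). Dusp6 (chromosome 10, 99263231 to 99267489, plus strand, GRCm38) had a lowest, median and highest home cage value of 164, 181 and 308 CPM in TRAP and 51.9, 80.0 and 109 in lysate. After the run these were 177, 210 and 344 in TRAP and 50.5, 84.8 and 95.6 in lysate. No TRAP library overlapped any lysate library, and the log2 fold was 1.54 ± 0.10 (SE, adjusted p = 3.61e-15, edgeR). Dusp7 (chromosome 9, 106368632 to 106375724, plus strand) was at 105, 172 and 227 CPM in home cage TRAP and 104, 136 and 192 in run TRAP. In lysate it was at 28.4, 38.2 and 100.5 CPM in the home cage and 31.9, 41.96 and 96.1 after the run. Here too the fractions did not overlap, but with library totals they did, at 90.1 to 191 CPM in TRAP and 31.0 to 129 in lysate. The log2 fold of Dusp7 was 1.59 ± 0.12 (adjusted p = 2.95e-13).

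Dusp16, a phosphatase of JNK and p38 (chromosome 6, 134715468 to 134792625, minus strand), was the most TRAP-enriched of the 10. Its CPM was 15.0, 23.7 and 30.6 in home cage TRAP and 11.1, 19.7 and 22.5 in run TRAP, against 2.41, 3.97 and 4.91 in home cage lysate and 2.68, 3.70 and 4.71 in run lysate. Every TRAP library lay above every lysate library, with a log2 fold of 2.49 ± 0.14 (adjusted p = 3.99e-16). This was above the median of the endothelial markers and far below that of the microglia markers given above. Within single mice the log2 ratio ran from 1.34 to 2.82.

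The other JNK and p38 phosphatases were lower in TRAP. Dusp8 (chromosome 7, 142079490 to 142095843, minus strand) was at 41.1, 49.5 and 69.9 CPM in home cage TRAP and 39.7, 66.7 and 169 in home cage lysate. After the run it was at 32.2, 57.6 and 75.2 in TRAP and 50.7, 64.0 and 165 in lysate. The fractions overlapped within cohort 1, with TRAP at 32.2 to 57.6 and lysate at 39.7 to 66.7 CPM, but not within cohort 2, with TRAP at 56.6 to 75.2 and lysate at 126 to 169. The log2 fold was -0.68 ± 0.11 (adjusted p = 3.94e-06). Dusp10 (chromosome 1, 184013302 to 184075636, plus strand) was at 1.85, 2.19 and 3.53 CPM in home cage TRAP, 1.31, 1.85 and 2.86 in run TRAP, 2.63, 3.39 and 5.30 in home cage lysate and 1.43, 2.90 and 4.15 in run lysate. Its log2 fold was -0.54 ± 0.17 (adjusted p = 0.00515, edgeR). The call was lost in cohort 1 alone (-0.35 ± 0.27, adjusted p = 0.276) and in run mice alone (-0.59 ± 0.31, adjusted p = 0.101). A fit of all libraries with a cohort by fraction term estimates the cohort 1 ratio again. It gave -0.35 ± 0.22 (adjusted p = 0.165, edgeR) and is no separate check.

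Among the inducible nuclear phosphatases, Dusp1 and Dusp4 were lower in TRAP. Dusp1 (chromosome 17, 26505590 to 26562128, minus strand), an early response gene that acts on p38 and JNK, was at 23.2, 38.5 and 50.6 CPM in home cage TRAP and 35.8, 60.5 and 86.6 in home cage lysate. The ranges overlapped, the log2 fold was -0.65 ± 0.13 (adjusted p = 4.69e-05), and the ratio was below 0 in 13 of 14 mice. Dusp4 (chromosome 8, 34807297 to 34819894, plus strand) was at 0.40, 1.19 and 3.55 CPM in home cage TRAP and 0.43, 0.81 and 1.44 in run TRAP. In lysate it was at 2.25, 2.50 and 4.33 CPM in the home cage and 2.75, 3.28 and 4.17 after the run. A single home cage TRAP library, at 3.55 CPM, lay above the home cage lysate median, and the log2 fold was -1.55 ± 0.29 (adjusted p = 1.71e-05).

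Dusp2 (chromosome 2, 127336159 to 127338376, plus strand), known from activated blood cells, had near equal means with TMM scaling, at 1.44 ± 0.94 CPM in TRAP and 1.43 ± 0.44 in lysate (SD, n = 14). Its log2 fold was -0.02 ± 0.33 (adjusted p = 0.964). With library totals in place of TMM the means were 1.16 in TRAP and 1.73 in lysate, and TRAP was higher in 4 of 14 mice. Dusp5 (chromosome 19, 53529109 to 53542431, plus strand), a nuclear phosphatase selective for ERK, was at 3.59 ± 1.99 CPM in TRAP and 5.02 ± 3.33 in lysate, with a log2 fold of -0.32 ± 0.19 (adjusted p = 0.133). It was called lower with limma-voom (-0.49 ± 0.21, adjusted p = 0.0367), in cohort 2 alone (-0.69 ± 0.24, adjusted p = 0.0203) and without the home cage mouse Female2 of cohort 1 (-0.50 ± 0.19, adjusted p = 0.0233). Dusp14 (chromosome 11, 84048041 to 84069261, minus strand) was at 46.7, 50.1 and 64.5 CPM in home cage TRAP and 97.4, 106 and 146 in home cage lysate. The fractions did not overlap in either condition, and its log2 fold was -1.11 ± 0.09 (adjusted p = 2.21e-12). This lay between the astrocyte and oligodendrocyte marker medians given above, as did both neuron marker medians. The ratio does not place Dusp14 in any of these cell types.

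**Figure D3:**
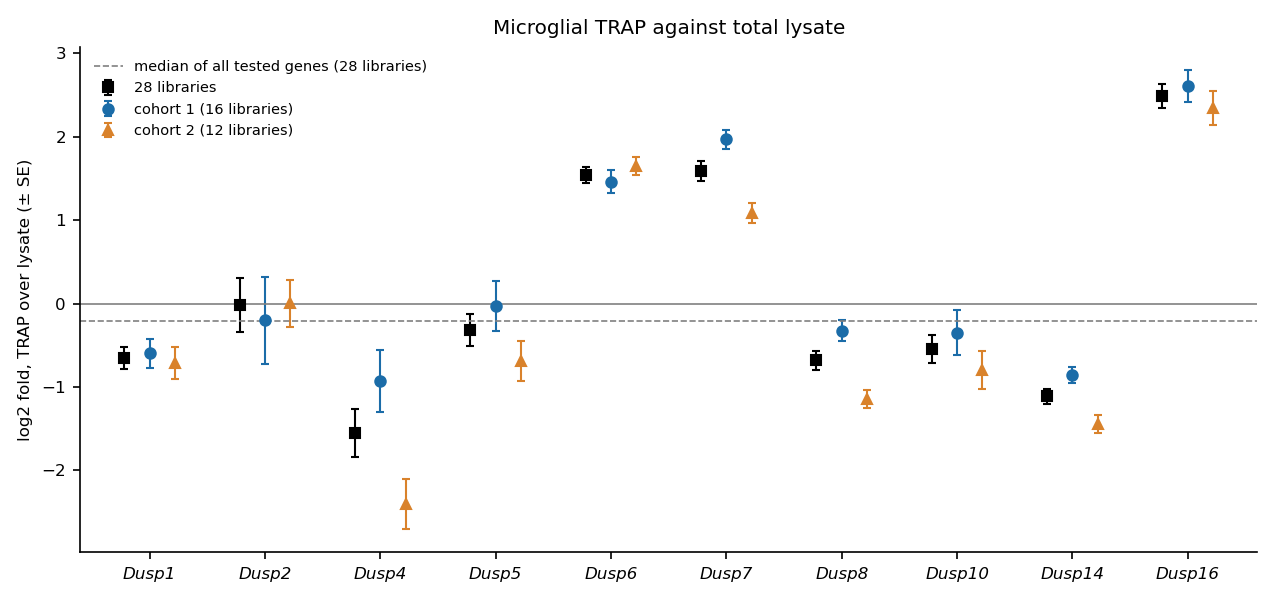
Log2 fold of TRAP over lysate (y axis) with its SE for the 10 genes, over all 28 libraries (squares) and in cohort 1 (circles) and cohort 2 (triangles), beside the median of all tested genes (dashed line). Dusp6, Dusp7 and Dusp16 lie above 0 in both cohorts, and Dusp4, Dusp7, Dusp8 and Dusp14 lie lower in cohort 2 than in cohort 1.

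The ratio of the fractions differed between the cohorts for 4 of the 10 genes, all lower in cohort 2, where 19.7% of 17092 genes passed the test of this difference in either direction. The log2 fold fell from 1.97 ± 0.12 in cohort 1 to 1.08 ± 0.12 in cohort 2 for Dusp7 (difference -0.89 ± 0.16, adjusted p = 0.000282). It went from -0.33 ± 0.13 to -1.15 ± 0.11 for Dusp8 (difference -0.82 ± 0.17, adjusted p = 0.000945), from -0.86 ± 0.10 to -1.45 ± 0.11 for Dusp14 (difference -0.59 ± 0.14, adjusted p = 0.00313) and from -0.93 ± 0.37 to -2.40 ± 0.31 for Dusp4 (difference -1.48 ± 0.49, adjusted p = 0.0338). For the other 6 the difference did not pass, at -0.67 for Dusp5, -0.46 for Dusp10, -0.27 for Dusp16, -0.12 for Dusp1, 0.18 for Dusp6 and 0.26 for Dusp2. The levels within a fraction also differed between cohorts, for 8 of the 10 genes in lysate, where 69.6% of all genes passed, and for 4 of 10 in TRAP, where 63.3% did. Among the 4 genes whose ratio differed, the log2 level of cohort 2 over cohort 1 was 1.38 in lysate and 0.51 in TRAP for Dusp7, 1.42 and 0.63 for Dusp8, 0.42 and -0.14 for Dusp14, and 0.47 and -0.98 for Dusp4, of which the TRAP values of Dusp14 and Dusp4 did not pass. The other 6 were at 1.64 and 1.01 (Dusp5), -0.66 and -0.46 (Dusp6), 0.62 and 0.18 (Dusp10), 0.56 and 0.86 (Dusp2), 0.32 and 0.23 (Dusp1) and 0.05 and -0.20 (Dusp16). The cohorts also differed in how the libraries followed GC content. Across genes, Spearman's correlation of a lysate library's deviation with GC ran from -0.73 to -0.47 in cohort 1 and from 0.51 to 0.78 in cohort 2. In TRAP it ran from -0.61 to -0.47 and from 0.44 to 0.72. Among table symbols, the percentile of exon GC was 93.9 for Dusp2, 92.9 for Dusp8, 90.0 for Dusp7, 86.8 for Dusp5, 84.0 for Dusp4, 75.5 for Dusp1, 63.6 for Dusp14, 51.7 for Dusp6, 48.5 for Dusp10 and 45.9 for Dusp16. The members' cohort differences in lysate followed this order in part. The highest, of Dusp5 (1.64), Dusp8 (1.42) and Dusp7 (1.38), were at GC percentiles from 86.8 to 92.9. The lowest were those of Dusp6 (-0.66, percentile 51.7) and Dusp16 (0.05, percentile 45.9). However, Dusp2, with the highest GC, was at 0.56, and Dusp6 and Dusp10, with near equal GC, had opposite signs. The part of GC in these level differences was not tested. With a GC correction of the counts, chosen after these values were seen, the 4 differences in the ratio were -0.72 ± 0.16 (Dusp7), -0.63 ± 0.13 (Dusp8), -0.57 ± 0.13 (Dusp14) and -1.38 ± 0.48 (Dusp4), and all 4 passed. Without the 2 mice at odds with their sex labels Dusp4 no longer passed (-1.84 ± 0.61, adjusted p = 0.0533), and the other 3 did.

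**Figure D4:**
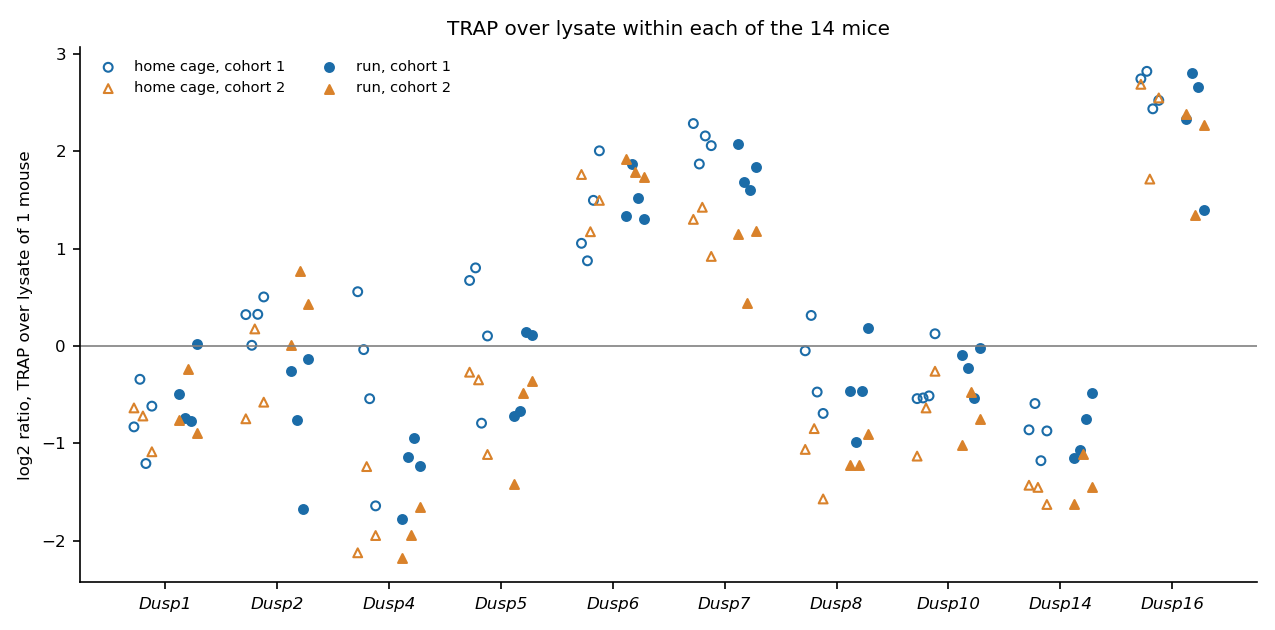
Log2 ratio of TRAP over lysate CPM within each of the 14 mice (y axis), with open symbols for home cage, filled for run, circles for cohort 1 and triangles for cohort 2. All 14 mice are above 0 for Dusp6, Dusp7 (13 of 14 with library totals) and Dusp16, all 14 are below 0 for Dusp14, and the run and home cage mice overlap for every gene.

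After 1 h on the rotarod, none of the 10 phosphatases passed the test in either fraction. In lysate, 7 of 10 had a positive log2 fold (median 0.12, all genes 0.00), and 2, Dusp5 and Dusp14, had an unadjusted p under 0.05. In TRAP, 6 of 10 were positive (median 0.05), and 2, Dusp1 and Dusp5, had an unadjusted p under 0.05. With edgeR, 0.0303% of 16522 genes in lysate and 0.0384% of 15644 in TRAP were called, and 7.3% and 3.56% had an unadjusted p under 0.05. DESeq2 called more genes, 40 of all those tested in lysate and 42 in TRAP. Of the members it called 1 in lysate, Dusp5, and 0 in TRAP, while limma-voom called 0 in both.

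Dusp5, which holds ERK in the nucleus in its inactive form, had the largest value of the 10 in lysate. In cohort 1 its lysate CPM was 0.80, 1.45, 1.64 and 2.53 in the home cage and 3.08, 3.97, 4.03 and 4.29 after the run. In cohort 2 it was 4.94, 5.67 and 8.06 in the home cage and 8.43, 9.18 and 12.2 after the run. Every run mouse was above every home cage mouse of its own cohort, which held for 0.248% of all genes tested in lysate and for no other member. The log2 fold was 1.01 ± 0.22 (SE, 2.01-fold, adjusted p = 0.203, edgeR), and the gene ranked 16th of all genes by p. DESeq2 gave 1.00 ± 0.23 with an adjusted p of 0.00966. Within cohort 1 it came to 1.26 ± 0.36 and within cohort 2 to 0.67 ± 0.22, and it was 1.08 ± 0.26 without the 2 mice at odds with their sex labels (adjusted p = 0.758).

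In TRAP, the CPM of Dusp5 in cohort 1 was 1.25, 1.58, 1.80 and 2.90 in the home cage and 2.33, 2.41, 3.38 and 4.52 after the run. In cohort 2 it was 3.46, 3.78 and 4.63 against 3.13, 6.45 and 8.59. The groups overlapped in both cohorts, and the log2 fold was 0.69 ± 0.29 (adjusted p = 0.999). It was 0.49 ± 0.39 without the 2 mice at odds with their sex labels. The annotation places 547 exon bases of an antisense gene opposite Dusp5, and reads of the pair cannot be told apart in these counts.

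Dusp1 in TRAP was at 23.2, 25.9, 38.5 and 46.9 CPM in the home cage mice of cohort 1 and 28.8, 40.5 and 50.6 in those of cohort 2. After the run it was at 35.4, 45.3, 45.4 and 69.2 in cohort 1 and 43.0, 49.0 and 75.9 in cohort 2. The groups overlapped, and no member was above the home cage in every run library of its own cohort in TRAP, where 0.185% of genes were. The log2 fold was 0.52 ± 0.19 (adjusted p = 0.999), with 0.56 ± 0.26 in cohort 1 and 0.46 ± 0.28 in cohort 2. In lysate Dusp1 was at 0.25 ± 0.14 (adjusted p = 0.706). Its lysate range was 35.8 to 86.6 CPM in the home cage and 60.5 to 89.3 after the run.

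Dusp14 in lysate was at 97.4, 97.9, 101 and 106 CPM in home cage mice of cohort 1 and at 101, 114, 119 and 120 after the run. In cohort 2 it was at 131, 138 and 146 against 142, 154 and 159. Its difference was small and its spread narrow, with a log2 fold of 0.16 ± 0.07 (adjusted p = 0.669). In TRAP the log2 fold was 0.23 ± 0.13 (adjusted p = 0.999), and the ranges of 46.7 to 64.5 CPM in the home cage and 49.7 to 81.7 after the run overlapped.

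Dusp2 was uneven in TRAP. In run mice of cohort 1 it was at 0.04, 0.56, 0.91 and 1.60 CPM, the first from a count of 4, and in run mice of cohort 2 at 1.87, 3.09 and 3.57. Home cage mice were at 0.96 to 1.66 in cohort 1 and 0.87 to 1.42 in cohort 2. On the log2 scale the run value was -0.75 ± 0.95 in cohort 1 and 1.38 ± 0.51 in cohort 2 (adjusted p = 0.927), and the difference between cohorts, 2.16 ± 1.17, did not pass (adjusted p = 0.867). Of the 3 run mice of cohort 2, 2 were those at odds with their sex labels, and without them the log2 fold over both cohorts was -0.28 ± 0.73 in place of 0.15 ± 0.65. In lysate it was 0.45 ± 0.23 (adjusted p = 0.691).

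The remaining members were at smaller values or had large errors. Dusp4 was at -0.59 ± 0.55 in TRAP and 0.26 ± 0.15 in lysate, and without the home cage library Female1 of cohort 1 its TRAP value was -0.33 ± 0.59. Dusp6, a classic readout of ERK feedback, was at 0.09 ± 0.15 in TRAP and -0.14 ± 0.11 in lysate, and Dusp7 at -0.27 ± 0.14 and 0.03 ± 0.10. Of the JNK and p38 phosphatases, Dusp8 was at 0.01 ± 0.12 and 0.08 ± 0.11, Dusp10 at -0.24 ± 0.32 and -0.28 ± 0.18, and Dusp16 at -0.36 ± 0.19 and -0.03 ± 0.19 (log2 fold, run over home cage, in TRAP and then lysate). Taken over both cohorts, home cage and run libraries of these 6 genes overlapped in both fractions. Within cohort 1, Dusp4 in lysate was at 2.25 to 2.50 CPM in the home cage and 2.75 to 3.28 after the run, and within cohort 2 the ranges of 3.43 to 4.33 and 3.64 to 4.17 overlapped. Without the 2 mice at odds with their sex labels, the TRAP values were 0.48 for Dusp1, -0.86 for Dusp4, 0.13 for Dusp6, -0.21 for Dusp7, -0.02 for Dusp8, -0.31 for Dusp10, 0.16 for Dusp14 and -0.24 for Dusp16. In lysate they were 0.25 for Dusp1, 0.45 for Dusp2, 0.31 for Dusp4, -0.11 for Dusp6, 0.03 for Dusp7, 0.11 for Dusp8, -0.30 for Dusp10, 0.17 for Dusp14 and -0.02 for Dusp16. None of the 10 passed in either fraction there, and Dusp8 in TRAP and Dusp2 in TRAP changed sign.

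The log2 fold differed between the fractions for 0 of 10 members with edgeR, DESeq2 or limma-voom, and 0 of 10 had an unadjusted p under 0.05 in edgeR. The difference, TRAP minus lysate, was -0.89 for Dusp4, -0.32 for Dusp16, -0.28 for Dusp5, -0.27 for Dusp7, -0.24 for Dusp2, -0.08 for Dusp8, 0.04 for Dusp10, 0.07 for Dusp14, 0.24 for Dusp6 and 0.27 for Dusp1, with SEs of 0.18 to 0.67. Of all 16880 genes, edgeR called 0%, and 696 had an unadjusted p under 0.05. Whether the run effect differed by cohort was tested in each fraction: 0 of 10 passed in edgeR, and 0 had an unadjusted p under 0.05. Cohort 2 minus cohort 1, the TRAP difference was 2.16 for Dusp2 and 0.56 for Dusp4, and -0.16 for Dusp5, -0.16 for Dusp10, -0.14 for Dusp7, -0.09 for Dusp1, -0.08 for Dusp6, -0.08 for Dusp16, 0.04 for Dusp14 and 0.17 for Dusp8. In lysate it was -0.58 for Dusp5, -0.38 for Dusp4, -0.27 for Dusp6, -0.15 for Dusp2, -0.14 for Dusp7, -0.06 for Dusp16, -0.03 for Dusp14, -0.01 for Dusp1, 0.003 for Dusp8 and 0.12 for Dusp10. Endothelial markers had negative run values in 6 of 6 cases in both fractions (median -0.15 in TRAP, -0.38 in lysate, 0 called), with summed levels of 10.6 to 47.3 CPM in home cage and 9.47 to 37.6 CPM in run lysate. Their part in the members' values was not tested.

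**Figure D5:**
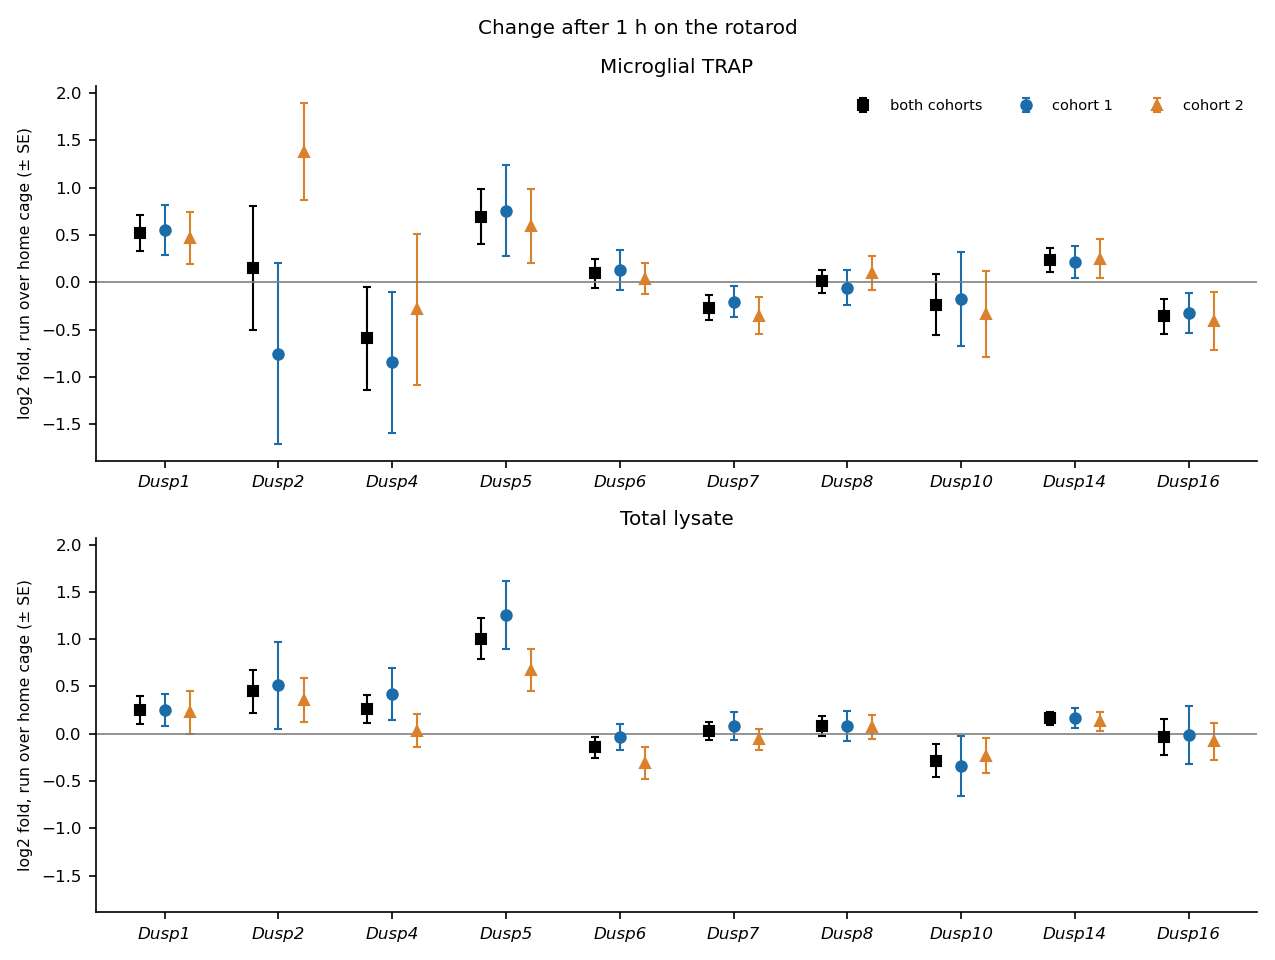
Log2 fold of run over home cage (y axis) with its SE for the 10 genes in TRAP (top) and lysate (bottom), over both cohorts (squares), in cohort 1 (circles) and in cohort 2 (triangles). Dusp5 lies above 0 in both cohorts and fractions, and Dusp2 in TRAP lies on opposite sides of 0 in the cohorts.

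The members were also compared with one another over 14 libraries of a fraction, after the mean of each condition and cohort was removed. The permutation shuffled all 14 libraries freely and did not allow for the means removed, so its p-values are too small. The pairs that passed are therefore a description, and a stricter test was not run. Of 45 pairs in lysate, 2 passed on Pearson's r after Benjamini-Hochberg adjustment (permutation test, two-sided). Dusp7 and Dusp8 varied together, with r = 0.79 (permutation p = 0.00072, adjusted 0.0162) and Spearman's rho = 0.76 (permutation p = 0.00241, adjusted 0.108). Their r was 0.81 in cohort 1, 0.69 in cohort 2 and 0.78 without the 2 libraries farthest from the median of Dusp7. In every pair the 2 farthest libraries were picked by the lower-numbered gene alone, so libraries far out in the other gene stayed in. Dusp1 and Dusp6 had r = 0.82 (permutation p = 0.00057, adjusted 0.0162) and rho = 0.68 (permutation p = 0.00881, adjusted 0.132). Without the 2 farthest libraries their r was 0.50, so that the size of the relation rests in part on those 2. It was 0.86 in cohort 1 and 0.78 in cohort 2. In TRAP 4 of 45 pairs passed on r (adjusted permutation p from 0.03075 to 0.0475) and none on rho (adjusted permutation p from 0.0513 to 0.172). Dusp1 varied with Dusp14 (r = 0.75, rho = 0.58, r = 0.60 without the 2 farthest libraries) and opposite to Dusp16 (r = -0.77, rho = -0.77, r = -0.81). Dusp7 varied opposite to Dusp5 (r = -0.75, rho = -0.69, r = -0.73) and to Dusp14 (r = -0.73, rho = -0.76, r = -0.52). The sign of each of these 4 was the same in both cohorts, with 8 and 6 libraries.

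The genes most like a member across the 14 lysate libraries were found by Pearson's r of log2 CPM with the cohort mean removed, over 16521 genes, for the 3 members with the smallest run p there. Run and home cage libraries both enter this measure, so it is a description with no test. For Dusp5 they included Efna1, an ephrin ligand (r = 0.954), and Hmox1, a heme-degrading enzyme (r = 0.930). Their run log2 folds in lysate were 0.55 ± 0.14 and 0.61 ± 0.14, and neither passed (adjusted p = 0.435 and 0.289, edgeR). For Dusp14 they were the early response factor Egr4 (r = 0.895, run log2 fold 0.53 ± 0.13), Esrrb (r = 0.873, 1.21 ± 0.70) and Mafk (r = 0.873, 0.41 ± 0.13). None of these 3 passed (adjusted p = 0.382, 0.710 and 0.575, edgeR). Esrrb had a mean of only 0.37 CPM in lysate, so its r rests on few reads. For Dusp2 they were Mrpl21 (r = 0.915), Zfp593 (r = 0.900) and Mrpl23 (r = 0.875), of which Mrpl21 and Mrpl23 encode proteins of the mitochondrial ribosome.

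The kinases that these phosphatases act on, and the other genes of the pathway, are given beside the 33.8% of all genes called higher and 40.1% called lower in TRAP. Of 14 MAP kinases tested, 3 were higher in TRAP and 8 lower. The ERK gene Mapk3 was higher (log2 fold 2.27 ± 0.10), whereas the JNK genes Mapk10 (-0.93 ± 0.11) and Mapk9 (-0.89 ± 0.09) were lower. Of 7 MAP kinase kinases, 2 were higher and 1 lower, among them Map2k2, which activates ERK (1.74 ± 0.10), and Map2k4, which activates JNK (-0.90 ± 0.11). Of 19 RAF and MAP kinase kinase kinases, 10 were higher and 7 lower, with Araf at -1.53 ± 0.09, Braf at -1.09 ± 0.12 and Map3k11 at 2.53 ± 0.14. Of 14 kinases and factors downstream of MAP kinases, 9 were higher and 4 lower, with the ribosomal S6 kinase Rps6ka1 at 4.84 ± 0.14, Mknk1 at 2.77 ± 0.07 and Mapkapk2 at 2.31 ± 0.09. Their medians were -0.63, 0.17, 0.31 and 0.88 in this order, beside -0.21 for all genes.

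Other phosphatases and outputs of the pathway were also read from lists, beside the same shares of all genes (33.8% higher and 40.1% lower). Of the 4 other MAP kinase phosphatases, 2 were lower in TRAP, the neuronal tyrosine phosphatases Ptpn5 (-1.64 ± 0.13) and Ptprr (-1.02 ± 0.12), and none was higher. Of 13 atypical dual specificity phosphatases, 3 were higher and 6 lower, with Dusp26 at -0.89 ± 0.10 and Dusp3 not passing at 0.05 ± 0.11. Of 7 feedback inhibitors of RAS and receptors, 3 were higher and 1 lower (Spry1 1.05 ± 0.15, Spry2 0.32 ± 0.12). Of 13 ERK output genes, 5 were higher and 5 lower, with Ccnd1 at 2.77 ± 0.10, Etv5 at 0.73 ± 0.08 and Egr1 at -1.59 ± 0.14. In the run comparisons, edgeR called 0 of 86 genes of these 8 lists in TRAP and 0 of 89 in lysate. DESeq2 called 0 and 1 of them, beside 42 and 40 of all genes, and limma-voom 0 and 0. The 1 was the feedback inhibitor Errfi1 (run log2 fold in lysate 0.42 ± 0.10 in edgeR, adjusted p = 0.289). At an unadjusted p under 0.05, which 3.56% of all genes had in TRAP and 7.3% in lysate, the ERK output genes had 2 higher and 0 lower of 13 in TRAP and 1 higher and 1 lower in lysate, with Egr1 at 0.25 ± 0.17 and 0.02 ± 0.10. The MAP kinases had 0 in TRAP and 1 lower of 14 in lysate.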

How the data were processed

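The authors deposited 1 table of raw counts for 28 libraries, prepared with Nextera XT from poly(A) RNA per the labels' protocols. The submitters' processing notes name STAR 2.7.7a, featureCounts, DESeq2 and GRCm38. The annotation, strand setting and handling of read pairs were not given in the sources used here. Of counts from 1 to 30, 67.4 to 74.8% were even, so a count need not be 1 independent fragment. Group, sex label and cohort come from the sample titles, and columns without a cohort mark were taken as cohort 1 because their other parts match those titles.

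Genes were tested with edgeR 4.0.16 (quasi-likelihood F test, R 4.3.3) on these counts, using TMM, filterByExpr and Benjamini-Hochberg adjustment over all genes tested, called at an adjusted p under 0.05. The run comparison used the 14 libraries of 1 fraction with cohort as covariate, and the TRAP over lysate comparison all 28. Differences between fractions or cohorts were tested as interaction terms. DESeq2 1.42.0 and limma 3.58.1 (voom) were alternatives, as were RLE scaling, no filter, a GC offset, each cohort alone and leaving out libraries. CPM uses TMM over 28 libraries. With library totals in place of TMM, every TRAP over lysate log2 ratio fell by 0.51 on average. Within-mouse ratios add 0.5 CPM. Exon lengths, positions and overlaps come from GENCODE M21 (GRCm38). Fits were also run on simulated counts that had no cohort effect, unlike these data. Their outcome is not given here, and nothing is drawn from it. Correlations used 100000 permutations over all 14 libraries of a fraction, which did not allow for the condition and cohort means removed.

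TRAP and lysate libraries of a mouse are paired by the titles. Their deviations correlated between -0.30 and 0.26, over 0.1 in 5 of 14 mice. Pairs of libraries within a group differed far beyond sampling noise (chi-square per degree of freedom at least 69.6). Members and lists were chosen with earlier results of these data known. All 10 members are named in every comparison. Of pathway lists at most the 4 genes with the highest mean CPM are named, and of marker lists at most the first 2. A few genes that these rules would name are not reported here.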

Additional observations from a re-analysis of the deposited data

Results flagged for a closer look

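A single library stood far from the other 6 of its group in 1 of 40 groups of member values. This was Dusp6 in run TRAP, where the mouse Female2 of cohort 1 was at 344 CPM and the others at 177 to 244. Chance alone marks about 1 in 20 groups drawn from a single normal distribution. That rate need not hold here, because each group pooled 2 cohorts. Dusp6 in TRAP was lower in cohort 2 than in cohort 1 (log2 level -0.46). Without that library the run log2 fold of Dusp6 in TRAP was -0.01, against 0.09 with it.

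The TRAP over lysate ratio differed between the cohorts for 4 genes, by -0.89 for Dusp7, -0.82 for Dusp8, -0.59 for Dusp14 and -1.48 for Dusp4 on the log2 scale, cohort 2 minus cohort 1. With a GC correction, chosen after these values were seen, they were -0.72, -0.63, -0.57 and -1.38, and all 4 passed. The part of GC, of depth or of the mice of each cohort was not tested.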

How the results depend on the processing

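In all, 1094 values under alternative settings were compared with the reported ones, and 1039 were counted as the same. A log2 fold had to keep its direction and its side of the threshold. Where it was called in neither setting, keeping its sign was enough. Levels and within-mouse ratios had to move by less than the spread between mice, and counts of members called had to be equal or close. The counts of 3 members higher and 5 lower in TRAP stayed at 3 and at 4 to 6 under every setting fitted, and 5 to 6 when each mouse was left out in turn. Of these settings, the cohort by fraction term gave the cohort 1 ratio again. Library totals in place of TMM were not used in any fit, so no call was tested with them. With them TRAP was higher in 14 of 14 mice for Dusp6 and Dusp16, 13 for Dusp7, 4 for Dusp2 and 2 for Dusp5. In run TRAP 0 members were called under every setting, and in run lysate 0 except with DESeq2, which called 1 (Dusp5). With DESeq2, 42 genes were called in run TRAP and 40 in run lysate, against 6 and 5 with edgeR. Without single libraries 3 to 10 and 0 to 8 were called. The difference of the TRAP over lysate ratio between cohorts was called for 3372 genes, for 4100 with a GC correction and for 1931 without the 2 mice at odds with their sex labels, and for 4, 4 and 3 members. Both of these settings were chosen after seeing the data.

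Directions turned only where the value was near 0 or its error large. In run TRAP Dusp8 became -0.0139 with the GC correction, -0.0158 without the 2 mice at odds with their sex labels and -0.0593 in cohort 1, and Dusp2 became -0.28 without those mice and -0.75 in cohort 1. Leaving out single libraries, Dusp2 ran from -0.0656 to 0.472, Dusp6 from -0.0106 to 0.190 and Dusp8 from -0.0775 to 0.0718. In run lysate Dusp7 became -0.0345 with the GC correction, -0.0606 in cohort 2 and -0.00219 with no cohort term. Without single libraries it ran from -0.0293 to 0.0679, and Dusp16 from -0.126 to 0.0609. In TRAP over lysate Dusp2 became 0.00406 in cohort 2 and 0.0271 in home cage mice, and without single mice ran from -0.139 to 0.0824. For the run effect in TRAP minus that in lysate, Dusp10 became -0.00301 with limma-voom and -0.14 in cohort 2, Dusp8 0.0710 without the 2 mice and Dusp2 1.00 in cohort 2. The cohort difference of Dusp2 in TRAP over lysate was -0.32 without the 2 mice. With library totals in place of TMM, mean within-mouse ratios moved by more than their SD for Dusp1 (-1.17), Dusp6 (1.01), Dusp10 (-0.90) and Dusp14 (-1.63), and none changed sign. The causes were not tested.

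Same-numbered home cage and run mice share only a label: their deviations correlated from -0.51 to 0.13 in lysate and -0.13 to 0.18 in TRAP. With the replicate block, Dusp5 in run lysate was 1.06 ± 0.24 (adjusted p = 0.517, edgeR), Dusp2 in run TRAP -0.0381 and Dusp8 -0.00395, and 0 members were called in either fraction. With the mouse as block, TRAP over lysate kept 3 members higher and 5 lower. In TRAP, Dusp2 and Dusp4 had CPM near 1 and the largest SEs of the 10 members for the run effect.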
